A study of Mus musculus with 6 samples.

Results

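The 38 genes described here carry glucose through the cell or answer to its oxygen supply, and they were followed in mouse embryonic stem cells that lack the adhesion protein E-cadherin. They were chosen by symbol, as the genes of glucose and lactate transport, glycolysis, the control of pyruvate entry into mitochondria, the pentose phosphate pathway and the hypoxia response. The symbols matched 39 of the 55401 genes in the count table, because the symbol Aldoa names 2 rows, and all 39 had enough counts to be tested, among 17325 tested genes. RNA was sequenced from 6 libraries of V6.5, a line of embryonic stem cells from hybrid mouse embryos. Libraries A, B and C of the wild type (WT) carried intact Cdh1, the gene of E-cadherin, and libraries A, B and C of the knockout (KO) were Cdh1-/-. The labels name no treatment or culture medium and do not say whether the knockout is 1 clone or whether replicates came from separate cultures, so p-values measure the spread between these libraries, which may be technical.

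Cells take up glucose through carriers of the Slc2a family, and hexokinase traps it as glucose 6-phosphate. Glycolysis then splits the sugar to pyruvate, which is either reduced to lactate and exported with a proton or oxidised in mitochondria, while the pentose phosphate pathway drains glucose 6-phosphate toward NADPH and ribose. Pluripotent stem cells are known for a strong reliance on glycolysis, and the transcription factor HIF-1, which is stabilised when oxygen is low, raises many genes of this pathway together with Vegfa, Bnip3 and Egln3.

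Total counts lay between 18020719 and 23381942 per library. Cdh1 transcripts stood at 559 ± 19.1 CPM (CPM is a count scaled to library size with TMM factors; mean ± SD, n = 3) in WT libraries and 173 ± 9.05 CPM in knockout libraries, so the libraries matched their labels, with transcript remaining. The 8 listed stem cell markers were all detected in all libraries and summed to between 3483 CPM and 4358 CPM. The 8 fibroblast markers, listed for feeder cells, summed to between 27.3 CPM and 40.0 CPM. Of 5 tested, Col1a1 fell (log2 fold change -1.48) and Pdgfra rose (1.49), and 4 of the 5 lay on the lower side. Their sum therefore mixes opposite changes. The summed endoderm markers lay between 31.1 CPM and 46.0 CPM in WT and between 75.6 CPM and 145 CPM in the knockout, where 6 of the 6 tested markers of 8 rose, while Afp and Ttr were too low to test. Their part in the values that follow was not tested. Chromosome 14 was raised in the knockout, with a median log2 fold change of 0.53 over its tested genes, and chromosome 1 was lowered, with a median of -0.33. Of the 39 genes followed here, Tkt lies on chromosome 14 and Pfkfb2 on chromosome 1, and no other lies on either. Of the endoderm markers that rose, Sox7 and Gata4 lie on chromosome 14 and Sox17 on chromosome 1.

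Promoter sequence is shown first. In it, 4 of the 5 genes that rose in the knockout share a short motif with most of the genes that did not. The motif is the core of the HIF binding site, ACGTG or GCGTG, searched on both strands in the 250 bases before each transcription start (RefSeq, GRCm38.p6). Overlapping matches were counted separately. Windows were given for 37 of the 38 symbols, all but Slc2a3. The core was found in 44 of 55 windows (80.0%), against 38.6% of all 32851 promoter windows. Listed windows were also richer in CpG, with a median of 14 CpG against 6 for all windows, so the 2 shares do not compare like sequence. All 4 genes with a window that rose in the knockout held the core in at least 1 window, and so did 30 of the 33 genes that were not called. Counted by window the order turned, with the core in 4 of 6 windows of called genes and in 40 of 49 windows of the others. The 3 symbols with no match in these windows were Gpi1, Tpi1 and Eno2. The sequences of the 4 called genes with a window follow, with Ldha as a gene that held 5 matches and was not called. Each runs 5′ to 3′ on the strand of its gene, and capitals mark the matches and their complements.
Slc2a1, chr4:119108495-119108744, plus strand: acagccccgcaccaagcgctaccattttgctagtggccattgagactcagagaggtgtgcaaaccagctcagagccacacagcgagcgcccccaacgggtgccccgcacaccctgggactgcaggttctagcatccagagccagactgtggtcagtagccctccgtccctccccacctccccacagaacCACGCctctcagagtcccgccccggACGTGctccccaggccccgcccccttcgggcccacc
Hk1, chr10:62340422-62340671, minus strand: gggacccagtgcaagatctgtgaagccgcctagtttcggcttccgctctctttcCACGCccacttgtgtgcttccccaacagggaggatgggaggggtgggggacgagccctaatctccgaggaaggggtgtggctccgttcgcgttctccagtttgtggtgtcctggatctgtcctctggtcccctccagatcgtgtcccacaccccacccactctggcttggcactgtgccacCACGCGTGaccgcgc
Tkt, chr14:30548881-30549130, plus strand: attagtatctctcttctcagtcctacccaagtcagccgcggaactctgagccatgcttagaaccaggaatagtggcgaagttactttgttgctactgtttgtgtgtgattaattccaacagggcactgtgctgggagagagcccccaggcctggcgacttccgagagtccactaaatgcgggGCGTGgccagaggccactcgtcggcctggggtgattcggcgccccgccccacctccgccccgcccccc
Vegfa, chr17:46032378-46032627, minus strand: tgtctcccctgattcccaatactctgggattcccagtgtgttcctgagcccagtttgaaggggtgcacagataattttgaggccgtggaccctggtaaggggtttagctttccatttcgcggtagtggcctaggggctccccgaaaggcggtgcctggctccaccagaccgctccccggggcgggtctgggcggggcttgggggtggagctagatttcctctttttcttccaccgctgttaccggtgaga
Ldha, chr7:46845554-46845803, plus strand: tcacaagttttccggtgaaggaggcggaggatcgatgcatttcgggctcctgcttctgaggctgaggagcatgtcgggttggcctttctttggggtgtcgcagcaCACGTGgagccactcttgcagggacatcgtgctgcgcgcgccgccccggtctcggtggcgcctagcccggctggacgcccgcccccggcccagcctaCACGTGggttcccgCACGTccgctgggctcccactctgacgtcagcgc
The Slc2a1 window held 2 matches, that of Hk1 held 3 and that of Tkt held 1. The Vegfa window at the start of the gene held none, and a window at a start inside the gene held 2. A further Hk1 window, at the outermost start of the gene, held none. A match of 5 letters is a description of the sequence and does not show that a factor binds there.

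In the knockout 5 of the 39 listed genes were higher and 0 were lower at an adjusted p under 0.05 (edgeR's quasi-likelihood test, Benjamini-Hochberg over all tested genes). The 5 were the glucose transporters Slc2a1 and Slc2a3, the hexokinase Hk1, the transketolase Tkt and the angiogenic factor Vegfa. Their share of 12.8% was close to the 13.3% called among all tested genes. By direction, 12.8% of the listed genes were higher against 7.60% of all genes, and none was lower against 5.71%. Before adjustment, 10 of the 39 had a p under 0.05, against 4622 of all 17325 tested genes. Of these 10 listed genes, 7 lay higher and 3 lower. DESeq2 and limma-voom each called the same 5. Many listed genes are abundant, which sharpens the test. Of the 30 with a mean of at least 1000 counts, 5 were called (16.7%), against 19.4% of all genes that deep. All knockout libraries lay above all WT libraries for 8 listed genes, and for none did they all lie below. These 8 make 20.5% of the list, against 30.7% of all tested genes whose libraries did not overlap in either direction. The median log2 fold change was 0.12, against -0.01 for all tested genes, and the median size of a change without its sign was 0.15 against 0.23. The median of 0.12 was 0.02 without knockout replicate A and 0.05 without WT replicate C, and the SD between libraries of the median deviation was 0.13.

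**Figure D1:**
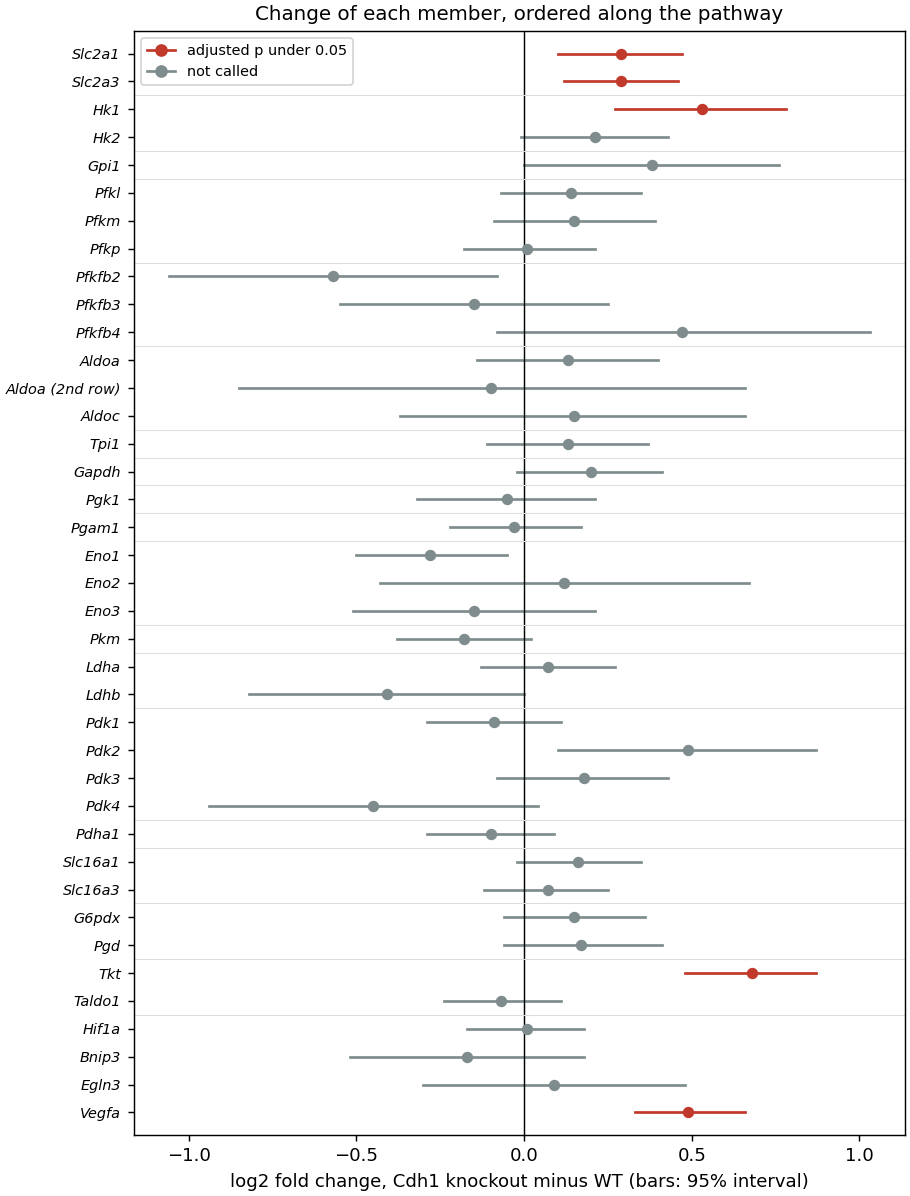
Log2 fold change of each listed gene, knockout minus WT, in pathway order from glucose uptake at the top to the hypoxia genes at the bottom. Points are fitted values, horizontal bars 95% intervals, and red marks an adjusted p under 0.05. The 5 red genes lie at the top (Slc2a1, Slc2a3, Hk1) and the bottom (Tkt, Vegfa), and the enzymes between them, from Hk2 to Ldhb, are grey.

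Knockout replicate A bore on these counts. Without it, 11 listed genes were called (28.2%, against 15.5% of all genes in that fit), 7 higher and 4 lower. The genes gained were Hk2 and Pgd, higher, and Eno1, Ldhb, Pfkfb2 and Bnip3, lower. Without WT replicate A, 3 were called (7.69%, against 7.72% of all genes in that fit), and both glucose transporters lost their call. Removing the medians of chromosomes 1 and 14 also left 3 (7.69%, against 9.85% of all genes). Tkt then had a log2 fold change of 0.14, while that of Slc2a1, on chromosome 4, stayed at 0.29 and its adjusted p went from 0.0405 to 0.0502.

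Both genes of glucose uptake rose. Slc2a3, which encodes the high-affinity carrier GLUT3, was the more abundant of the pair. It stood at 2913, 3287 and 2980 CPM in the WT libraries (A, B and C, in this order throughout) and at 3749, 3570 and 3911 CPM in the knockout. Every knockout library lay above every WT library. The rise was 22.3% (log2 fold change 0.29 with a standard error, SE, of 0.08, adjusted p = 0.0239). Slc2a1, the gene of the widely expressed carrier GLUT1, was counted at 780, 919 and 847 CPM in WT and at 1028, 1109 and 971 CPM in the knockout. Here too the groups did not overlap, and the rise was 22.1% (log2 fold change 0.29 with SE 0.09, adjusted p = 0.0405). Both changes were small and near the threshold. Slc2a3 missed the threshold on leaving out WT replicate A (adjusted p = 0.121) or knockout replicate C (0.0793). Slc2a1 missed it on leaving out WT replicate A (adjusted p = 0.197), WT replicate C (0.0706) or knockout replicate B (0.129). Per kilobase of exon, Slc2a3 made up 74.8 ± 0.580% of the transcripts of the pair in WT and 74.8 ± 2.12% in the knockout, so the mix of carriers stayed within the spread of the libraries.

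Hexokinase commits glucose to metabolism, and the 2 listed forms differ in abundance. Hk1, a form found in most tissues, had 110, 125 and 97.5 CPM in WT and 189, 153 and 137 CPM in the knockout. The groups did not overlap, although knockout replicate A stood above the other two. Hk1 rose by 43.9% (log2 fold change 0.53 with SE 0.12, adjusted p = 0.00862), and its call held without any one library, with an adjusted p of at most 0.0485. Hk2, the form known for its response to insulin and hypoxia, had 486, 623 and 557 CPM in WT and 569, 708 and 648 CPM in the knockout. These ranges overlapped, and the log2 fold change of 0.21 (95% interval -0.01 to 0.43, adjusted p = 0.219) was not called, while without knockout replicate A the adjusted p was 0.0489. Per kilobase, Hk2 stayed the main form, with 79.2%, 81.2% and 83.2% of the pair in WT and 72.3%, 80.0% and 80.4% in the knockout.

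**Figure D2:**
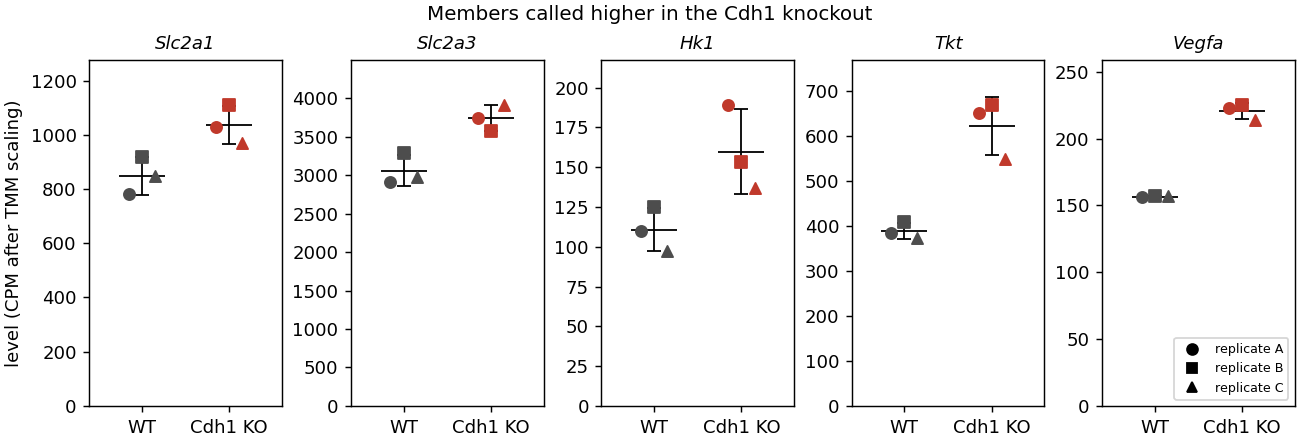
Levels of the 5 called genes in CPM after TMM scaling, on linear axes from 0, with 1 point per library, its shape giving the replicate letter. Lines and bars are the mean and SD of 3 libraries. In all 5 panels the lowest knockout library lies above the highest WT library, as for Vegfa at 214 CPM against 157 CPM.

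The next enzymes did not pass the test. Phosphoglucose isomerase, encoded by Gpi1, had 1328, 1427 and 1091 CPM in WT and 2351, 1393 and 1272 CPM in the knockout. A single library, knockout replicate A, lay far above the other five. The log2 fold change was 0.38 (adjusted p = 0.182), and 0.06 without that library. Phosphofructokinase sets the pace of glycolysis and is built from liver, platelet and muscle type subunits. Pfkl had 521, 502 and 418 CPM in WT and 559, 545 and 483 CPM in the knockout (a log2 change of 0.14, 95% interval -0.07 to 0.35). Pfkp had 487, 463 and 405 CPM in WT and 485, 464 and 417 CPM in the knockout, with a log2 fold change of 0.01 (interval -0.18 to 0.21). The WT and knockout levels of both subunits overlapped. Their shares per kilobase showed less scatter than the levels. Pfkl made up 50.9%, 51.2% and 49.9% of phosphofructokinase transcripts in WT and 51.9%, 53.2% and 52.5% in the knockout, and Pfkp 41.3%, 41.0% and 42.0% against 39.1%, 39.3% and 39.4%. These shares did not overlap between genotypes, and the shift was about 2 percentage points, given here without a test. At other steps the shares of Pfkfb4 and Pdk2, given below, did not overlap either. Pfkm, the muscle type, held between 7.49% and 8.95%. Of the exon bases of Pfkp, 17.4% are overlapped by an antisense gene, and whether counting used strand is not given in the sources used here.

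Fructose 2,6-bisphosphate, the strongest activator of phosphofructokinase, is made and removed by the Pfkfb enzymes, and these were among the least abundant listed genes. None of the 3 was called. Pfkfb3 was the main form per kilobase, with 73.0 ± 5.79% of the transcripts in WT and 72.1 ± 8.11% in the knockout. Pfkfb2, on the lowered chromosome 1, had 12.7, 12.3 and 7.90 CPM in WT and 9.62, 6.86 and 5.75 CPM in the knockout, and the ranges overlapped. Its log2 fold change was -0.57 (adjusted p = 0.122), -0.80 (adjusted p = 0.0177) without knockout replicate A, and -0.26 with the chromosome median removed. Another gene on the same strand covers 24.7% of its exon bases. Pfkfb4 had 3.78, 5.41 and 4.10 CPM in WT and 6.69, 4.28 and 7.52 CPM in the knockout (a log2 change of 0.47, interval -0.08 to 1.03).

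From aldolase to lactate dehydrogenase, the trunk of the pathway held the most abundant listed genes and no called change. Per kilobase of exon, Gapdh stood at rank 7 among all tested genes with a mean of 2473 CPM per kilobase, followed by Pkm at rank 31, Aldoa at 40 and Eno1 at 59. Ldha and Pgk1 came at ranks 83 and 87. Gapdh, often used as a reference gene, had 3306, 3569 and 3458 CPM in WT and 4684, 3649 and 3520 CPM in the knockout. Knockout replicate A was again the highest, and the ranges overlapped (log2 fold change 0.20, interval -0.02 to 0.41, adjusted p = 0.227). Without that library the log2 fold change of Gapdh was 0.06. Aldoa (ENSMUSG00000030695.16), the main aldolase with 98.6% of aldolase transcripts per kilobase in either genotype, showed a log2 change of 0.13, and -0.06 without knockout replicate A. A second, short Aldoa row held between 31 and 73 counts per library.

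Tpi1, Pgk1 and Pgam1 had log2 fold changes of 0.13, -0.05 and -0.03, with 95% intervals that lay between -0.32 and 0.37. Eno1 of enolase and Pkm of pyruvate kinase, the last steps before pyruvate, lay on the lower side without passing the test. Of the other enolase genes, Eno2 had a log2 fold change of 0.12 and Eno3 of -0.15, neither called. Eno1 had 2609, 2578 and 2186 CPM in WT and 2341, 1975 and 1776 CPM in the knockout (a log2 change of -0.28, interval -0.50 to -0.05, adjusted p = 0.102). Only knockout replicate A reached into the WT range, and without it Eno1 was called (log2 fold change -0.39, adjusted p = 0.00451). Eno1b, a retrogene copy of Eno1, held 263 ± 19.5 CPM (WT) and 224 ± 31.8 CPM (knockout), and reads of near-identical copies may be split between them. Summed with it, Eno1 showed a log2 change of -0.27 (adjusted p = 0.105). Pkm had 3696, 3543 and 3206 CPM in WT and 3361, 3164 and 2670 CPM in the knockout. These ranges overlapped, with a log2 fold change of -0.18 (interval -0.38 to 0.02, adjusted p = 0.229). Gene counts do not separate its M1 and M2 splice forms, and 12.9% of its exon bases are shared with another gene on its strand.

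**Figure D3:**
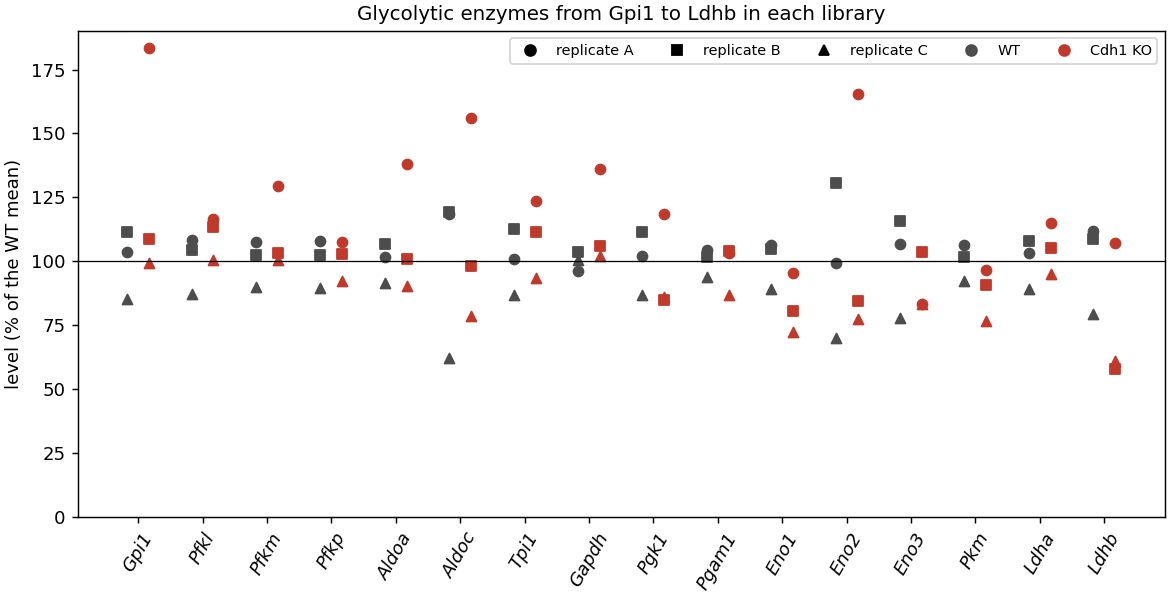
Level of each enzyme gene from Gpi1 to Ldhb in each library, as a percentage of its WT mean on a linear axis from 0. Grey points are WT, red points the knockout, and shapes give the replicate letter. Knockout replicate A (red circles) is the highest knockout library in 14 of 16 genes, and WT replicate C (grey triangles) the lowest WT library in 15 of 16.

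Libraries of one genotype differed along this trunk in a regular way. Over the 16 enzyme genes from Gpi1 to Ldhb, knockout replicate A was the highest knockout library in 14 genes and knockout replicate C the lowest in 13. In WT, replicate C was the lowest in 15 of the 16, and replicate A or B the highest in every one. These genes took 1.82%, 1.83% and 1.57% of all counts in the WT libraries and 2.08%, 1.63% and 1.48% in the knockout. The spread within a genotype was thus as large as any difference between genotypes in this sum.

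Pyruvate becomes lactate through lactate dehydrogenase, whose subunits favour opposite directions of the reaction. Ldha, the subunit tied to lactate formation, had 1279, 1334 and 1102 CPM in WT and 1424, 1302 and 1176 CPM in the knockout, with overlapping ranges (log2 fold change 0.07, interval -0.13 to 0.27). Ldhb, the subunit tied to lactate use, had 213, 207 and 151 CPM in WT and 204, 110 and 116 CPM in the knockout. Knockout replicates B and C lay below all of WT, while replicate A lay within it. The log2 fold change of Ldhb was -0.41 (adjusted p = 0.184), and -0.75 (adjusted p = 0.000163) without knockout replicate A. Per kilobase, Ldhb made up 19.5%, 18.4% and 16.6% of the pair in WT and 17.2%, 10.9% and 12.5% in the knockout.

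**Figure D4:**
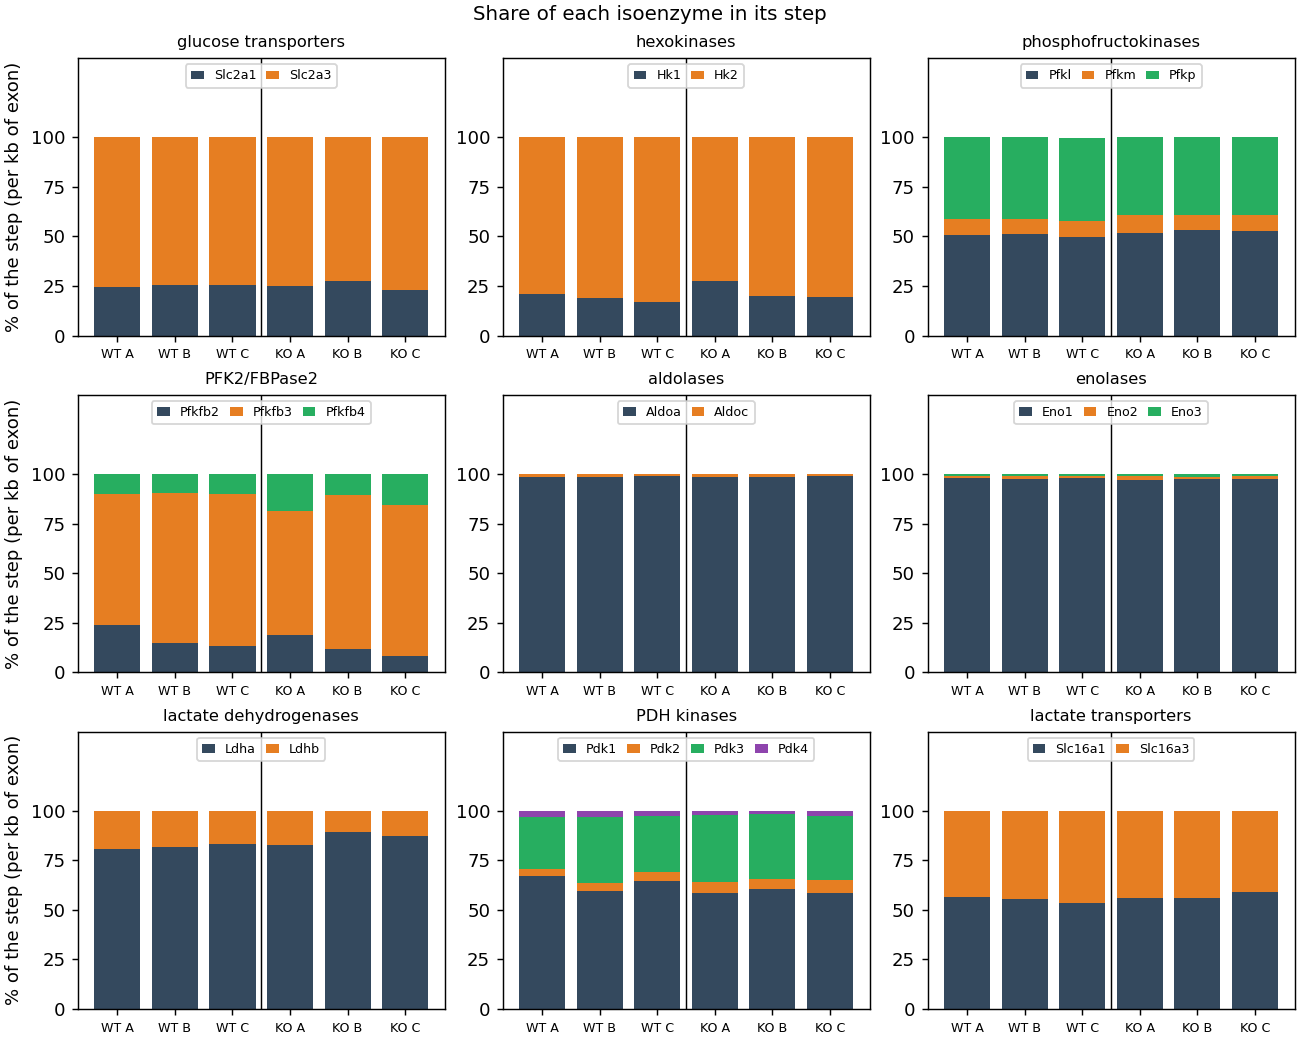
Share of each isoenzyme in its step, in percent of counts per kilobase of exon, 1 stacked bar per library, with the 3 WT libraries left of the line and the 3 knockout libraries right of it. The leading form is the same in all 6 libraries at each of the 9 steps. Ldhb takes 17.2%, 10.9% and 12.5% in the knockout bars against 16.6% to 19.5% in WT.

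Lactate leaves the cell through monocarboxylate transporters. Slc16a1, which encodes MCT1, had 197, 212 and 179 CPM in WT and 221, 215 and 222 CPM in the knockout. The groups did not overlap, but the log2 fold change of 0.16 (interval -0.02 to 0.35, adjusted p = 0.244) was not called. Slc16a3, the gene of the export carrier MCT4, showed a log2 change of 0.07, and an antisense gene overlaps 6.88% of its exon bases. Slc16a1 kept between 53.6% and 58.9% of the pair per kilobase in all 6 libraries.

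Entry of pyruvate into mitochondrial oxidation is controlled by pyruvate dehydrogenase, and its kinases switch it off. Pdk1, a HIF-1 target, was the main kinase transcript. It had 304, 268 and 260 CPM in WT and 284, 257 and 241 CPM in the knockout, overlapping ranges with a log2 fold change of -0.09 (interval -0.29 to 0.11). Pdk2 had 6.75, 8.49 and 8.0 CPM in WT and 11.8, 9.22 and 11.6 CPM in the knockout. Its libraries were fully separated, at low counts, and the log2 fold change of 0.49 missed the threshold (adjusted p = 0.0935). Pdk2 supplied 4.12 ± 0.594% of kinase transcripts per kilobase in WT and 5.71 ± 0.746% in the knockout. Pdk3 and Pdk4 had log2 fold changes of 0.18 and -0.45 (adjusted p = 0.376 and 0.225). Pdha1, the catalytic subunit that these kinases phosphorylate, showed a log2 change of -0.10 (interval -0.29 to 0.09), with 21.2% of its exon bases under a gene on the opposite strand.

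The pentose phosphate pathway held the largest called change on the list. Tkt, which encodes transketolase of the reversible branch, had 385, 408 and 372 CPM in WT and 650, 668 and 548 CPM in the knockout. All knockout libraries lay well above WT, with a rise of 60.2% (log2 fold change 0.68 with SE 0.09, adjusted p = 0.000163). Tkt lies on chromosome 14 (30549131 to 30574720), where the knockout libraries stood 0.54 to 0.55 above the other autosomes on the log2 scale and 51.4% of tested genes were called. With that chromosome median removed, the log2 fold change of Tkt was 0.14 (adjusted p = 0.383). Its partner Taldo1, the gene of transaldolase on chromosome 7, showed a log2 change of -0.07 (interval -0.24 to 0.11).

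The oxidative branch makes NADPH and opens with glucose-6-phosphate dehydrogenase. G6pdx had 48.5, 46.7 and 41.7 CPM in WT and 48.6, 53.1 and 50.2 CPM in the knockout. The lowest knockout library only just cleared the highest WT library, and the log2 fold change was 0.15 (interval -0.06 to 0.36, adjusted p = 0.377). Pgd, the next dehydrogenase, showed a log2 change of 0.17 (adjusted p = 0.350), and 0.30 (adjusted p = 0.0356) without knockout replicate A.

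Of the hypoxia genes, Vegfa alone was called. Vegfa, a secreted growth factor for blood vessels, had 156, 157 and 157 CPM in WT and 223, 225 and 214 CPM in the knockout. Both groups were tight and far apart, with a rise of 40.8% (log2 fold change 0.49 with SE 0.08, adjusted p = 0.000664). The log2 fold change of Vegfa lay between 0.46 and 0.52 over 17 alternative settings, with an adjusted p of at most 0.00729. Hif1a, the regulated subunit of HIF-1, is controlled mainly through the stability of its protein. Its transcript had 107, 109 and 111 CPM in WT and 108, 108 and 114 CPM in the knockout, a log2 fold change of 0.01 (interval -0.17 to 0.18). Bnip3, a mitochondrial receptor for autophagy, had 97.9, 139 and 109 CPM in WT and 135, 81.2 and 91.0 CPM in the knockout. Knockout replicate A stood apart here as well, and the log2 fold change of -0.17 (adjusted p = 0.558) was -0.42 (adjusted p = 0.0234) without it. A gene on the opposite strand lies over 27.2% of the Bnip3 exon bases. Egln3, a prolyl hydroxylase that marks HIF for destruction, showed a log2 change of 0.09 (interval -0.30 to 0.48), and its lowest library in both genotypes was replicate A.

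A wider list of 28 hypoxia genes gave 6 higher and 1 lower, with a median log2 fold change of 0.17. The share called was 25%, against 13.3% of all tested genes and 19.4% of those with a mean of at least 1000 counts. Epas1, the gene of HIF-2 alpha, rose from 46.9, 45.7 and 38.7 CPM to 62.0, 89.5 and 90.4 CPM (log2 fold change 0.88, adjusted p = 0.000526). The groups did not overlap, and knockout replicate A was the lowest of its group. P4ha2 and Plod2, which modify collagen, rose with log2 fold changes of 0.50 and 0.46 (adjusted p = 0.00442 and 0.00811), though Plod2 was not called (adjusted p = 0.0628) without WT replicate A. Ndrg1 rose by 0.47 on the log2 scale, close to the cut-off (adjusted p = 0.0490) and with overlapping libraries, and lost its call in 9 of 17 alternative settings, 4 of them without 1 library (WT replicates A and C, knockout replicates B and C), where the adjusted p reached 0.228. Ero1l, an oxidase of protein folding on chromosome 14, rose with a log2 fold change of 0.82 (adjusted p = 0.00530), which was 0.28 (adjusted p = 0.351) once the chromosome median was removed. Its knockout replicate A stood highest at 598 CPM, and the log2 fold change without it was 0.52. Bnip3l was the other gene of chromosome 14 that rose, with a log2 fold change of 0.46 (adjusted p = 0.00443) against a median of 0.53 for that chromosome. Stc2 was the 1 gene that fell (log2 fold change -0.64, adjusted p = 0.00898), and lost its call on leaving out WT replicate A (adjusted p = 0.0602) or C (0.0636). With the chromosome medians removed, 4 of the 28 were called (against 9.85% of all genes), and also 4 without WT replicate A (against 7.72%).

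Other genes of glucose metabolism were taken from a list of 53, of which 44 were tested. Of these, 5 were higher and 4 lower (20.5% called, against 13.3% of all tested genes), and the median log2 fold change was -0.00. Of the 5 that rose, Pck2 and Pdhb (log2 fold change 0.51) lie on chromosome 14, whose median was 0.53. The count of 9 was 7 with the chromosome medians removed (against 9.85% of all genes) and 6 without WT replicate A (against 7.72%). Rare isoenzymes made the widest moves. Fbp2, a fructose bisphosphatase of gluconeogenesis, rose from 0.540, 1.21 and 2.7 CPM to 4.09, 6.46 and 10.9 CPM (log2 fold change 2.28, adjusted p = 0.00392). Leaving out 1 library moved that value between 1.85, without knockout replicate C, and 3.05, without WT replicate C. Hkdc1, a hexokinase-like gene, rose with a log2 fold change of 1.75 (adjusted p = 0.00486). Ldhc, the testis form of lactate dehydrogenase, had at most 2 counts in any knockout library and at most 23 in WT, and was at least 3.25-fold lower in the knockout against a floor of 6 counts per library. Pdp1, the phosphatase that reactivates pyruvate dehydrogenase, fell from 15, 13.0 and 12.3 CPM to 8.29, 8.82 and 7.27 CPM (log2 fold change -0.73, adjusted p = 0.00854), and was not called (adjusted p = 0.0612) without WT replicate A. Emb, which encodes embigin, a chaperone of lactate transporters, fell with a log2 fold change of -0.59 (adjusted p = 0.00245). Pck2 of chromosome 14 rose with a log2 fold change of 0.55 (adjusted p = 0.0177), which was 0.01 with the chromosome median removed. Leaving out 1 library ended that call for WT replicates A and B (adjusted p = 0.0733 and 0.0952) and knockout replicates B and C (0.0909 and 0.0678).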

How the data were processed

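RNA of 6 libraries was extracted with TRIzol and prepared with a directional kit, per the labels' protocols. The authors deposited raw counts per gene with exon lengths. The submitters' processing notes name cutadapt 2.10, STAR 2.7.5b, featureCounts 2.0.1 and genome build GRCm38. Strand and read-pair settings are not given in the sources used here. Of counts from 1 to 10, between 78.1% and 83.1% were even in each library. Both mates of a pair may have been counted, so that 1 fragment can stand as 2 counts. The floor was therefore set to 6 counts (0.262 CPM to 0.332 CPM), which covers counting error only, and an alternative divided the counts by 2.

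Symbols came from GENCODE M21 for 55141 of 55401 genes. Counts were fitted in R 4.3.3 with edgeR 4.0.16 (filterByExpr defaults, TMM, quasi-likelihood test, genotype as the only term), and p-values were adjusted over 17325 genes. Standard errors came from the F statistic. Alternatives used DESeq2 1.42.0, limma 3.58.1, other scalings and filters, a replicate block, offsets for chromosomes 1 and 14, and fits without each library. One, the sum of Eno1 and Eno1b, was added after the data were seen. The procedure was tested on simulated data. These held no chromosome shift and no difference shared by the genes of a library, so they do not test those features. Genes and lists were chosen with earlier results of these data known. Library values are given for called genes, for genes whose groups do not overlap and for fixed control points of the pathway, and up to 6 called genes with the largest changes are described from each wider list. Others with library values (Gpi1, Gapdh, Eno1, Pfkfb2, Pfkfb4 and Bnip3), the genes Bnip3l and Pdhb, and the printed promoters were chosen after their values were seen.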

Additional observations from a re-analysis of the deposited data

How the results depend on the processing

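The same 5 listed genes were called under RLE scaling, a filter at CPM over 1, counts divided by 2, DESeq2 and limma-voom. With no low-count filter 8 were called (20.5%, against 8.63% of the 32417 genes in that fit), 2 of them lower. At an adjusted p under 0.01 there were 3, all higher, of 1242 genes in all. That share of 7.69% of the listed genes was close to the 7.17% of all tested genes. With the medians of chromosomes 1 and 14 removed there were 3, all higher (7.69%, against 9.85% of all genes). Leaving out 1 library gave 3 to 11 called, 3 to 7 higher and 0 to 4 lower, against 1374 to 2784 of all genes. Of the 28 genes of the wider hypoxia list, 11 were called with no low-count filter (against 8.63% of all genes). The count was 4 with chromosome medians removed (against 9.85%), and 4 to 10 without 1 library (against 7.72% to 15.5%). With no filter the added genes were Gpi1, higher, and Eno1 and Ldhb, lower. Upper quartile scaling and library totals each left 4 listed genes, without Slc2a1 (10.3%, against 13.5% and 13.4% of all genes).

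Whether letters A, B and C pair the libraries is not settled by these values. Over all tested genes, deviations from the genotype mean correlated at 0.14 for A, -0.03 for B and 0.23 for C. Over the 39 listed genes they correlated at 0.59 for A, -0.24 for B and 0.70 for C. In both sets library B of the knockout correlated best with another letter. The replicate block gave 8 called listed genes (20.5%, against 15.5% of all genes in that fit), 5 higher and 3 lower, the added ones being Eno1, Ldhb and Pfkfb2.

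Signs turned only for genes that were not called. Pfkp (-0.02) and Hif1a (-0.03) turned under upper quartile scaling and library totals, Hif1a (-0.00) under the filter at CPM over 1 and Pgam1 (0.00) with no filter. Without 1 library the log2 fold change ranged for Pfkp from -0.05 to 0.08, for Pfkfb3 from -0.33 to 0.09, for Aldoa from -0.06 to 0.26, for Aldoa (second row) from -0.35 to 0.18, for Aldoc from -0.18 to 0.35, for Pgk1 from -0.23 to 0.04, for Pgam1 from -0.06 to 0.06, for Eno2 from -0.31 to 0.36, for Hif1a from -0.01 to 0.03 and for Egln3 from -0.08 to 0.29.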
